A study of Mus musculus with 25 samples.

Results

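The effect of the dam's diet on hypothalamic microRNAs (miRNAs) was measured in female mice that themselves ate a hypercaloric diet (HCD). Female offspring of dams on HCD (HCD-HCD, 3 libraries) were compared with female offspring of dams on a regular chow diet (RD; RD-HCD, 3 libraries), and these are 6 of the 25 libraries of the series. In each group name the dam's diet stands before the offspring's own diet. All mice were wild-type C57BL/6J. Dams ate a 52% fat, high-sucrose HCD or RD for 1 month before mating and through pregnancy and lactation, and offspring ate HCD or RD from weaning until the hypothalamus was frozen at 3 months of age. HCD-HCD and RD-HCD females therefore differed only in the diet of the dam, as far as the labels say. HCD-HCD and RD-HCD males (3 libraries each), HCD-RD females (3 libraries), RD-RD females (3 libraries) and RD-RD males (4 libraries) are used here for comparison. The labels name no litter or dam, so the p-values measure only the spread between these libraries.

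miRNAs are short RNAs that guide Argonaute proteins to messenger RNAs and lower their translation and stability. Target choice rests mainly on the seed, the stretch of bases near the 5′ end, so miRNAs that share a seed form a family with overlapping targets. The hypothalamus controls feeding, energy use and hormone release, and in mice its feeding circuits mature after birth. Each hairpin precursor can yield a 5p and a 3p arm, of which one is usually the more abundant guide strand.

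The authors deposited, for each group against RD-RD of the same sex, a fold and a p-value for each miRNA, and no value per library. The difference described here is the log2 fold of HCD-HCD over RD-RD minus the log2 fold of RD-HCD over RD-RD, both taken from 1 table. A positive value means a higher level in HCD-HCD. Of 1618 miRNAs listed, 649 had a mean of at least 10 unique molecules in both comparisons, that is, no low-count remark, and are described here. A standard error could be read back from the deposited p-values for 581 of them, and 65 others lay too close to no change for that (the largest difference among them was 0.17 in size). A further 3 had no deposited p-value. The median standard error was 0.40 on the log2 scale, so that a single miRNA needed about a 1.72-fold difference to reach an unadjusted p of 0.05.

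The depth of each library is not known from these tables, but the remarks differed between the groups. A mean under 10 molecules was marked in HCD-HCD alone for 192 miRNAs and in RD-HCD alone for 1. The median log2 difference of those 192, on the normalised scale, was -0.04. Library names carry order numbers, 2, 11 and 16 for HCD-HCD and 10, 12 and 14 for RD-HCD. The 43 listed libraries can be divided into 3 complete sets of order numbers in 3 ways that break up a single library code. In all 3 ways HCD-HCD shared a set with HCD-RD, and RD-HCD shared another set with RD-RD. If the sets are batches, set and dam diet cannot be told apart in females. The tissue could be looked at by detection only. All 17 neuron-enriched and all 13 hypothalamic and neuroendocrine miRNAs listed reached 10 molecules in both groups, as did 8 of 9 choroid plexus and ependymal markers. So did 7 of 8 muscle and liver and all 5 erythrocyte miRNAs, against 649 of all 1618 miRNAs. Detection therefore does not set the hypothalamus apart from other tissue.

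The mature sequences of the miRNAs that passed the test, of their relatives by seed and of the families and clusters that follow are given 5′ to 3′, with bases 2 to 8, the seed, in capitals. They come from RefSeq on GRCm38.p6, where 564 of the 649 miRNAs were matched. The first set holds the 3 miRNAs that passed, and the other hairpin arm with its own values is described with each.
miR-1298-5p: uUCAUUCGgcuguccagaugua
miR-664-3p: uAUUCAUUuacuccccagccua
miR-34b-5p: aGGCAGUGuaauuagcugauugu
The next 2 share the seed of miR-34b-5p and are shown beside it because their differences were smaller in size. miR-34c-5p, whose difference of -1.10 was nearer to that of miR-34b-5p, had no matched sequence and is not printed.
miR-34a-5p: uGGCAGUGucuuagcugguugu
miR-449a-5p: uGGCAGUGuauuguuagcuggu
The let-7 family members printed here differ at few bases outside the seed, which is why reads can be shared between them.
let-7c-5p: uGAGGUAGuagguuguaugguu
let-7b-5p: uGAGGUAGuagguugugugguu
let-7i-5p: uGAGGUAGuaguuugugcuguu
let-7g-5p: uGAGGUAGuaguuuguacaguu
The next 3 come from the related miR-17 to miR-92 clusters, and miR-20a-5p and miR-93-5p share a seed.
miR-19b-3p: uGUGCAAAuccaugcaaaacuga
miR-20a-5p: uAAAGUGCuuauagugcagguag
miR-93-5p: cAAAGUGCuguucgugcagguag
The RefSeq entries of the miR-101 pair are offset by 1 base, so their capitals differ although the sequences overlap.
miR-101a-3p: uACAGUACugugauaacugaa
miR-101b-3p: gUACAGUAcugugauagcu
The last pair are the 2 arms of 1 hairpin, which moved in opposite directions.
miR-872-5p: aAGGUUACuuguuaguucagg
miR-872-3p: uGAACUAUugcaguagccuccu

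Females of HCD-fed dams differed from females of RD-fed dams in 3 of 581 miRNAs (0.516%) at an adjusted p under 0.05. miR-664-3p was higher in HCD-HCD (0.172% of miRNAs tested called higher), and miR-1298-5p and miR-34b-5p were lower (0.344% called lower). The test was a two-sided normal (Wald) test on the log2 folds deposited by the authors, adjusted by the Benjamini-Hochberg procedure over all 581. At an unadjusted p under 0.05 there were 61 miRNAs (10.5%), of which 26 were higher (4.48%) and 35 lower (6.02%). Most differences were small: 558 of 649 miRNAs (86.0%) lay within 1.5-fold, and 14 lay beyond 2-fold, 7 in each direction. The median difference of the 649 was 0.04. When both implied variances were added with no allowance for the RD-RD libraries that both folds share, 0 miRNAs passed.

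**Figure D1:**
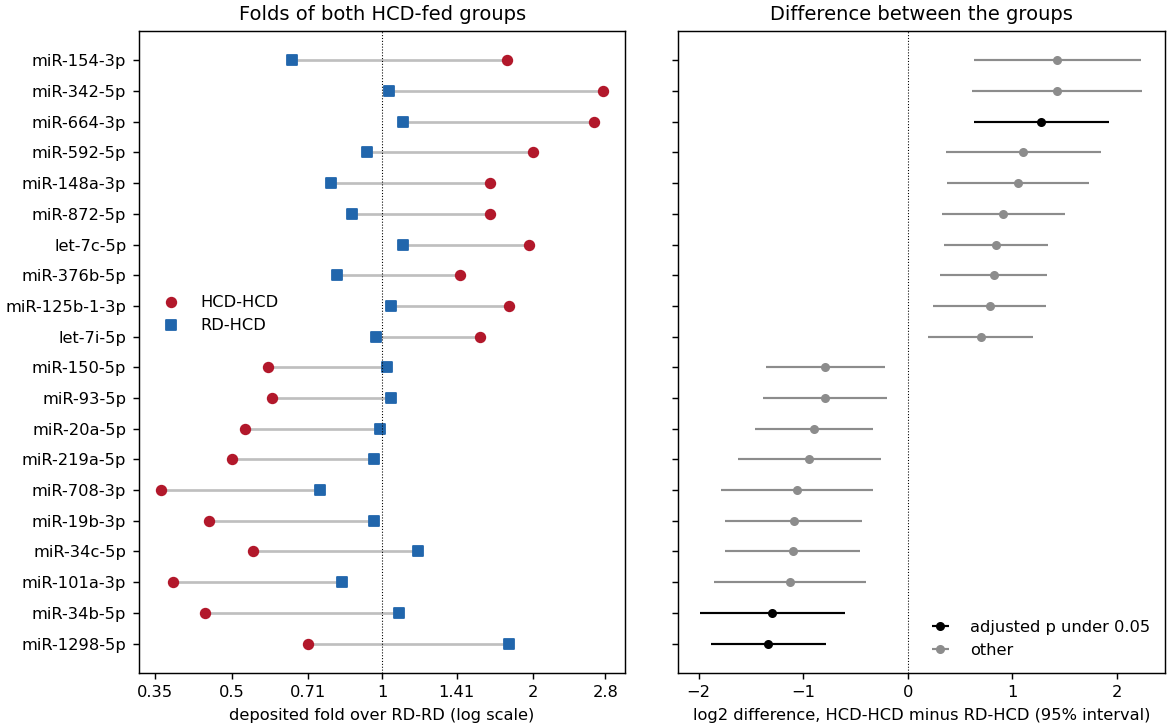
Deposited folds over RD-RD on a log scale (left, HCD-HCD as circles and RD-HCD as squares) and the log2 difference of HCD-HCD minus RD-HCD with its 95% interval (right), for the 10 miRNAs with the smallest p in each direction in females. Black marks the 3 miRNAs at an adjusted p under 0.05, and for most of the 20 it is the HCD-HCD circle that lies away from 1. RD-HCD, unlike HCD-HCD, shared an order number set with RD-RD, and the part of the sets in this pattern was not tested.

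miR-1298-5p was the lowest in HCD-HCD relative to RD-HCD. It stood at 0.71 of RD-RD in HCD-HCD (p = 0.088) and at 1.79-fold of RD-RD in RD-HCD (p = 0.0019) in the authors' deposited table. HCD-HCD lay under the RD-RD level and RD-HCD above it. The ratio of HCD-HCD to RD-HCD was 0.397, a log2 difference of -1.33 with a standard error of 0.28 (95% interval -1.88 to -0.79, adjusted p = 0.0011 by the normal test with Benjamini-Hochberg adjustment). Its hairpin lies at chrX:147064905-147065002 on the plus strand, inside an intron of Htr2c. With both variances added its adjusted p was 0.44. Htr2c encodes the serotonin 2C receptor, which acts in hypothalamic neurons to limit feeding and is also abundant in the choroid plexus. In this bulk tissue, fewer cells of a type and less RNA per cell cannot be told apart.

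Both arms of the 5 hairpins placed in introns of Htr2c were then looked up, a choice made after the value of miR-1298-5p was seen. Of 9 mature miRNAs with no remark, 7 were below 0 and 2 above, against 290 of all 649 miRNAs below 0. Among the 9, 1 passed the test and 3 had an unadjusted p under 0.05, all lower, against 6.02% of all miRNAs tested. The median difference of the 9 was -0.55. These counts and the median include miR-1298-5p itself. The 9 come from 5 hairpins of 1 host gene, so they are not separate observations. miR-448-3p differed by -0.68 (standard error 0.32, adjusted p = 0.39 by the normal test) and miR-1264-3p by -0.69 (standard error 0.31, adjusted p = 0.35). Neither passed. miR-1912-3p differed by -0.74, miR-1912-5p by -0.55 and miR-764-3p by -0.49, all with an interval that included 0. The 2 above 0 were miR-1264-5p at 0.48 (standard error 0.44) and miR-448-5p at 0.36 (standard error 0.44). The opposite arm of the leading hairpin, miR-1298-3p, differed by -0.51 with a standard error of 0.32. In males the median difference of the same 9 was -0.06, with values from -1.23 for miR-1912-5p to 0.67 for miR-448-5p. miR-1912-5p passed in males (adjusted p = 0.012 by the normal test). miR-1912-3p lay at -0.88 and miR-764-3p at -0.87 in males, while miR-448-3p lay at 0.35 and miR-1264-5p at 0.32.

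miR-34b-5p was lower in HCD-HCD as well. The authors' deposited table gave it 0.44 of RD-RD in HCD-HCD (p = 0.0014) and 1.08-fold in RD-HCD (p = 0.74). The log2 difference was -1.30 (standard error 0.35, 95% interval -1.98 to -0.61, adjusted p = 0.044 by the normal test with Benjamini-Hochberg adjustment), a ratio of 0.407. It is made from a hairpin at chr9:51103562-51103645 on the minus strand, outside any annotated gene on that strand. miR-34b and miR-34c are made from 1 primary transcript, respond to p53 and are abundant in cells with motile cilia, as are the miR-449 miRNAs. miR-34c-5p stood at 0.55 of RD-RD in HCD-HCD and at 1.18-fold in RD-HCD in the authors' deposited table, a log2 difference of -1.10 (standard error 0.33) that did not pass (adjusted p = 0.075 by the normal test). The 3p arms of both hairpins did not share this direction: miR-34b-3p differed by 0.19 (standard error 0.38) and miR-34c-3p by 0.08 (standard error 0.37). Of the seed relatives, miR-34a-5p, at -0.32 with a standard error of 0.33, did not pass. miR-449a-5p lay at -0.04 with no readable error and was not tested. The call on miR-34b-5p was near the threshold, and its Benjamini-Hochberg adjusted p lay over 0.05 under 4 of the alternatives tried, at 0.054, 0.072, 0.087 and 0.99. It did not pass by Benjamini-Yekutieli or Holm adjustment either.

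miR-664-3p was the miRNA that passed as higher. It reached 2.66-fold of RD-RD in HCD-HCD (p = 2.7e-05) and 1.1-fold in RD-HCD (p = 0.67) in the authors' deposited table. The log2 difference was 1.27 (standard error 0.33, 95% interval 0.63 to 1.92, adjusted p = 0.031 by the normal test with Benjamini-Hochberg adjustment), a ratio of 2.42. Its hairpin at chr1:185242975-185243043 (plus strand) lies in an intron of Rab3gap2, a regulator of Rab GTPases, and overlaps the small nucleolar RNA gene Snora36b, so reads of that RNA could be counted with it. The adjusted p of miR-664-3p was 0.062 when low-count miRNAs were included and 0.99 with both variances added, and it did not pass by Benjamini-Yekutieli or Holm adjustment. miR-664-5p differed by 0.20 with a standard error of 0.45.

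Larger differences than that of miR-664-3p were seen for miR-154-3p and miR-342-5p, which had larger errors and did not pass. miR-154-3p, from the maternally expressed Dlk1-Dio3 cluster on chromosome 12, stood at 1.78-fold of RD-RD in HCD-HCD and at 0.66 in RD-HCD in the authors' deposited table. Its log2 difference was 1.43 (standard error 0.41, adjusted p = 0.063 by the normal test). miR-342-5p, whose hairpin (chr12:108658620-108658718) sits within an Evl intron, stood at 2.77-fold of RD-RD in HCD-HCD and at 1.03-fold in RD-HCD in the authors' deposited table, and its log2 difference was 1.43 (standard error 0.42, adjusted p = 0.072 by the normal test). The other higher miRNAs among the 10 with the smallest p were let-7c-5p, miR-376b-5p, miR-872-5p, miR-148a-3p, miR-592-5p, miR-125b-1-3p and let-7i-5p, with log2 differences of 0.69 to 1.10. The lower ones that remain were miR-19b-3p, miR-20a-5p, miR-101a-3p, miR-708-3p, miR-150-5p, miR-219a-5p and miR-93-5p, with log2 differences of -1.13 to -0.79. At an adjusted p under 0.1 there were 10 miRNAs.

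The let-7 and miR-98 guide strands lay on the high side in HCD-HCD throughout, though none passed the test. let-7 miRNAs rise during development, are held back by the RNA-binding protein Lin28, and lower insulin signalling when overexpressed in mice. All 11 members were above 0 (median 0.50, from 0.27 to 0.84), against 347 of all 649 miRNAs above 0 and a median of 0.04. No member passed at an adjusted p under 0.05. Of the 11, all tested, 4 had an unadjusted p under 0.05, all higher, against 4.48% of all miRNAs tested. let-7c-5p led, at 1.97-fold of RD-RD in HCD-HCD and 1.1-fold in RD-HCD in the authors' deposited table, a log2 difference of 0.84 (standard error 0.25, adjusted p = 0.075 by the normal test). let-7i-5p differed by 0.69, let-7g-5p by 0.70 and miR-98-5p by 0.81. The members with the smallest differences were let-7e-5p at 0.27 and let-7j at 0.32. In RefSeq the seed of let-7j differs from that of the other members at its last base. Set against RD-RD, the list median was 0.65 on the log2 scale in HCD-HCD and 0.08 in RD-HCD. Reads of near-identical members can be exchanged, so the 11 are not separate observations.

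Related clusters around miR-17 and miR-92, known to drive cell proliferation, included miRNAs on the low side. miR-19b-3p stood at 0.45 of RD-RD in HCD-HCD and at 0.96 in RD-HCD in the authors' deposited table, a log2 difference of -1.09 (standard error 0.33, adjusted p = 0.078 by the normal test). miR-20a-5p differed by -0.90 (standard error 0.29) and miR-93-5p by -0.79 (standard error 0.30). Of the 10 members with no remark, of 12 listed, none passed, and 3 had an unadjusted p under 0.05, all lower, against 35 of 581 miRNAs (6.02%) lower over all. The median of the 10 was -0.30, against 0.04 over all. miR-17-5p (0.27), which has the seed of miR-20a-5p, and miR-18a-5p (0.03), from the same primary transcript, did not share the direction.

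Small seed families differed in direction. Both listed members of the miR-101 family, which represses the histone methyltransferase Ezh2, had an unadjusted p under 0.05 and were lower. Over all miRNAs tested, 4.48% were higher and 6.02% lower at that level. miR-101a-3p differed by -1.13 (standard error 0.37) and miR-101b-3p by -0.77 (standard error 0.31), and the list leaves out the entry miR-101c. Neither passed at an adjusted p under 0.05. In the miR-181 family miR-181b-5p (0.73) and miR-181d-5p (0.80) had an unadjusted p under 0.05, miR-181a-5p lay at 0.41, and miR-181c-5p lay at -0.61. The 3 members of the miR-29 family had a median of -0.33, the 5 of the miR-30 family -0.44 and the 3 of the miR-125 family -0.36. The 6 members of the miR-15 and miR-16 family had a median of -0.12, and the 3 of the miR-99 and miR-100 family 0.13. In these last 5 families none passed, and miR-29c-3p (-0.61) and miR-30e-5p (-0.56) had an unadjusted p under 0.05.

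**Figure D2:**
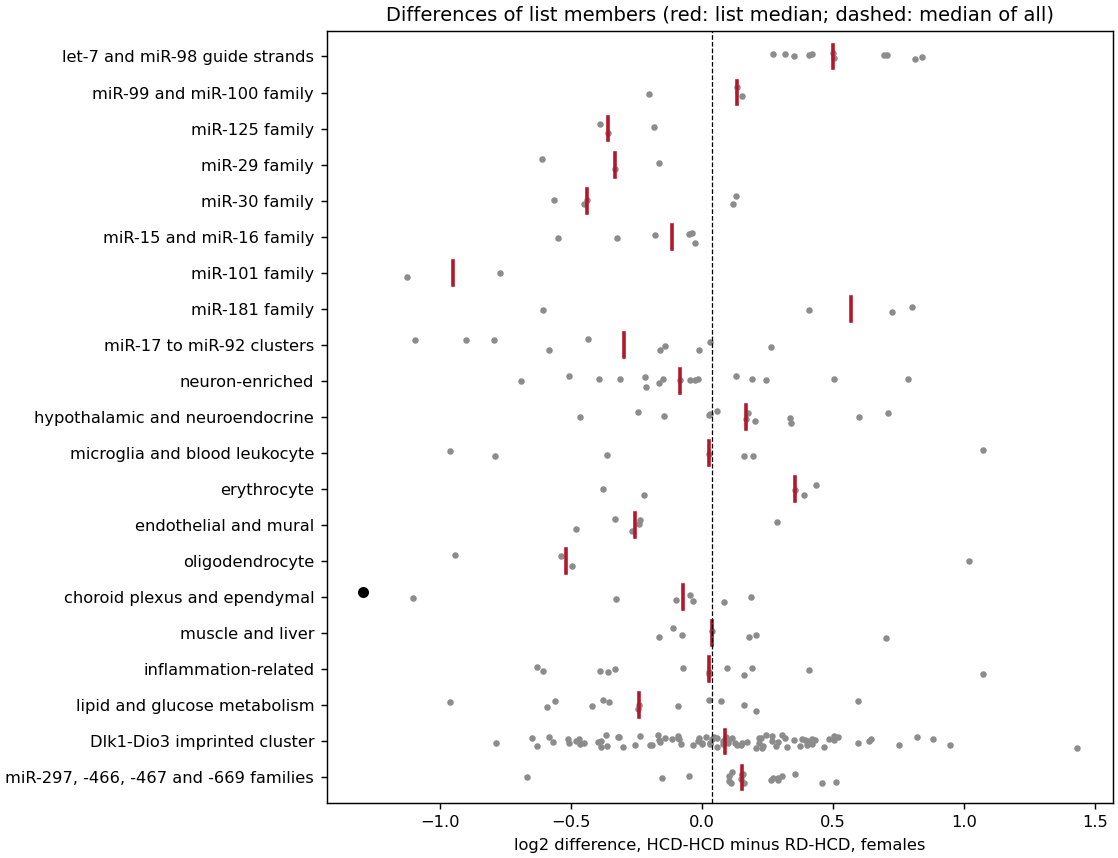
Log2 difference of HCD-HCD minus RD-HCD in females for the members of 21 lists with no low-count remark, 1 point per miRNA. Red bars mark list medians, the dashed line marks the median of all 649 miRNAs (0.04), and the large black point is miR-34b-5p, the list member that passed; all 11 let-7 and miR-98 points lie to the right of 0.

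Marker lists of cell types gave 1 call, miR-34b-5p among the choroid plexus and ependymal miRNAs. The 8 members of that list had a median of -0.07, and the choroid plexus miRNA miR-204-5p lay at -0.33 (standard error 0.30). The 17 neuron-enriched miRNAs had a median of -0.08. Of the 13 tested, 1 was higher (miR-129-1-3p, 0.79) and 1 lower (miR-138-5p, -0.69) at an unadjusted p under 0.05. Over all miRNAs tested, 4.48% were higher and 6.02% lower. The most typical of the 17, miR-124-3p, lay at -0.03 and miR-9-5p at -0.15. The 13 hypothalamic and neuroendocrine miRNAs had a median of 0.17, and of the 12 tested none had an unadjusted p under 0.05. In this list miR-7a-5p, which acts in neuroendocrine cells, lay at 0.17, while the list's highest, miR-183-5p, lay at 0.71 with a standard error of 0.45.

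Glial and blood markers were mixed within each list. Of 4 oligodendrocyte miRNAs, miR-219a-5p, which promotes oligodendrocyte differentiation, lay at -0.94 (standard error 0.35) and miR-338-5p at 1.02 (standard error 0.43), both at an unadjusted p under 0.05. miR-338-3p, the guide strand of that hairpin, lay at -0.50, and the list median was -0.52. Over all miRNAs tested, 4.48% were higher and 6.02% lower at an unadjusted p under 0.05. Of 7 microglial and leukocyte miRNAs, miR-155-5p, induced in activated immune cells, lay at 1.07 (standard error 0.42), miR-142a-5p at -0.96 (standard error 0.39) and miR-150-5p at -0.79 (standard error 0.29), and the median was 0.03. miR-142a-3p lay at 0.19, opposite to the other arm of its hairpin. The medians were 0.36 for 5 erythrocyte, -0.25 for 6 endothelial and mural and 0.04 for 7 muscle and liver miRNAs, with none at an unadjusted p under 0.05. The part of these cell types in any other result was not tested.

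Metabolic and inflammatory lists also held no miRNA that passed. Of 14 lipid and glucose miRNAs, 12 were tested. Of these, 2 had an unadjusted p under 0.05, both lower, against 6.02% of all miRNAs tested. The median of the 14 was -0.24. miR-33-5p, made from an intron of Srebf2 and a repressor of cholesterol export, stood at 0.37 of RD-RD in HCD-HCD and at 0.72 in RD-HCD in the authors' deposited table, a log2 difference of -0.96 (standard error 0.40, adjusted p = 0.28 by the normal test). miR-103-3p, which lowers insulin sensitivity in mice, differed by -0.59 (standard error 0.24). The 13 inflammation-related miRNAs had a median of 0.03. Of the 11 tested, miR-155-5p alone had an unadjusted p under 0.05, and it was higher, against 4.48% of all miRNAs tested. Of the Dlk1-Dio3 imprinted cluster, 93 of 108 listed miRNAs had no remark and 85 were tested. At an unadjusted p under 0.05, 4 of the 85 were higher and 4 lower, a share near that of all miRNAs tested (4.48% higher and 6.02% lower), and the median was 0.09. Of the miR-297, miR-466, miR-467 and miR-669 families, whose largest cluster lies in an intron of Sfmbt2, 20 of 44 had no remark, with a median of 0.15 and none at an unadjusted p under 0.05.

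The same contrast in males, HCD-HCD minus RD-HCD, called 41 of 709 miRNAs (5.78%), 19 higher (2.68%) and 22 lower (3.1%). With both variances added, 2 remained, miR-99a-5p and miR-100-5p. The difference between the sexes was tested directly: 0 of 537 miRNAs passed at an adjusted p under 0.05 (normal test, Benjamini-Hochberg), and 24 (4.47%) had an unadjusted p under 0.05. A larger count of calls in males was therefore not shown to be a difference between the sexes for any single miRNA. Over 628 miRNAs measured in both, the female and male differences had a Pearson correlation of 0.489 and a Spearman correlation of 0.446, and 66.4% of those not at 0 shared a sign. No library is shared by the sexes. The points share the library kit and the base makeup of each miRNA, and the Pearson correlation of the female difference was 0.009 with GC content and 0.031 with length over 561 miRNAs.

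**Figure D3:**
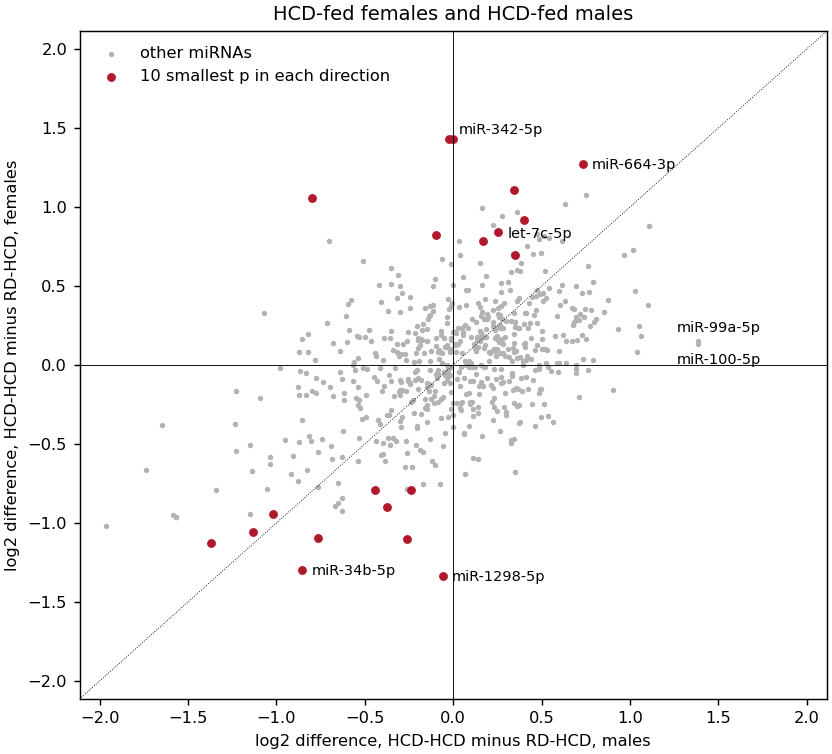
Log2 difference of HCD-HCD minus RD-HCD in females (vertical) and males (horizontal), 1 point per miRNA with no low-count remark in all 4 comparisons (n = 628). Red marks the 10 miRNAs with the smallest p in each direction in females, of which 16 of 20 have the same sign in males; miR-1298-5p lies at -1.33 in females and -0.06 in males.

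Of the 20 miRNAs with the smallest p in females, 16 had the same sign in males, and 2 of them passed there. These were miR-101a-3p, at -1.13 in females and -1.37 in males (male adjusted p = 0.0077 by the normal test), and miR-708-3p, at -1.06 in females and -1.13 in males (male adjusted p = 0.0345). miR-664-3p was 1.27 in females and 0.73 in males, and miR-34b-5p was -1.30 in females and -0.85 in males. miR-1298-5p was -1.33 in females and -0.06 in males, where the fold lay too close to 1 to give an error, so this pair was not tested. The let-7 and miR-98 list had a median of 0.50 in females and 0.45 in males. miR-142a-5p was -0.96 in females and -1.57 in males, and miR-33-5p was -0.96 in females and -1.57 in males.

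The sexes lay furthest apart for miR-148a-3p, which in the liver controls the low-density lipoprotein receptor. It differed by 1.05 in females and -0.80 in males, and the difference between the sexes, 1.85 with a standard error of 0.53, did not pass (unadjusted p = 0.00043, adjusted p = 0.11 by the normal test). miR-100-5p lay at 0.13 in females and 1.39 in males, and miR-99a-5p at 0.15 in females and 1.39 in males. The difference between the sexes was -1.25 for miR-100-5p and -1.23 for miR-99a-5p, and neither passed (adjusted p = 0.48 for both by the normal test).

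Among RD-fed females the effect of the dam's diet is the fold of HCD-RD over RD-RD, which the authors deposited in a separately normalised table. The 2 female contrasts share no library once the RD-RD level cancels from the first. Of 450 miRNAs, 1 differed between HCD-fed and RD-fed females at an adjusted p under 0.05 (0.222%, called lower), and 22 (4.89%) had an unadjusted p under 0.05. It was miR-1298-5p. Its dam diet difference was -1.33 in HCD-fed and 0.70 (standard error 0.24) in RD-fed females, and these differed by -2.03 on the log2 scale (standard error 0.37, adjusted p = 2.1e-05 by the normal test with Benjamini-Hochberg adjustment). Relative to RD-RD, miR-1298-5p thus stood at 0.71 in HCD-HCD, 1.62-fold in HCD-RD and 1.79-fold in RD-HCD in the authors' deposited table. Both groups with HCD at 1 stage lay above RD-RD, and the group with HCD at both stages lay below it. The opposite arm, miR-1298-3p, did not share this reversal. Its dam diet difference was -0.51 in HCD-fed and -0.32 in RD-fed females, and these differed by -0.19 (standard error 0.41), which did not pass.

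**Figure D4:**
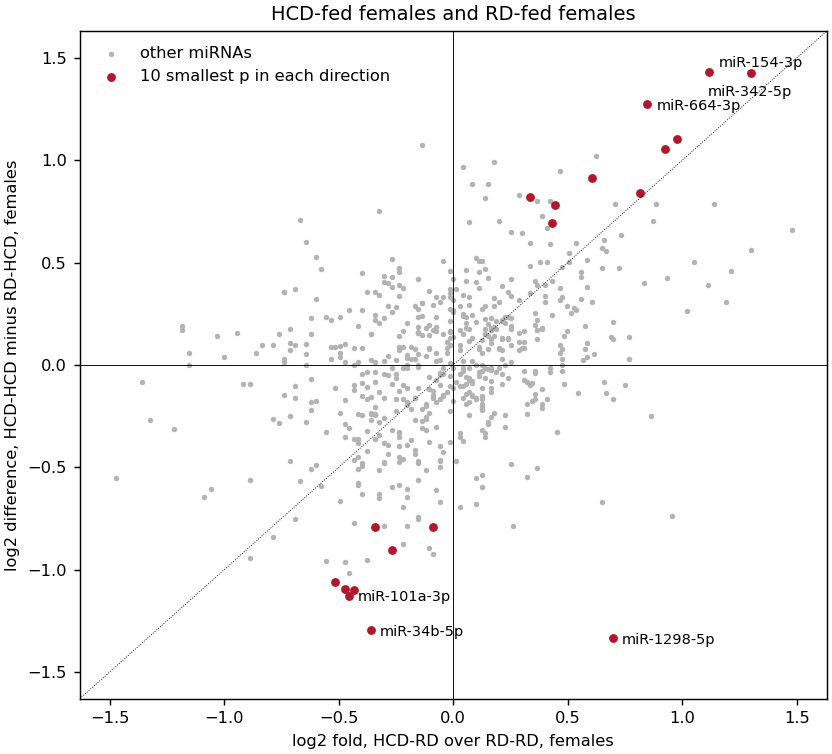
Effect of the dam's diet in HCD-fed females (vertical, HCD-HCD minus RD-HCD) and in RD-fed females (horizontal, HCD-RD over RD-RD), both as log2, 1 point per miRNA (n = 626). Red marks the 10 miRNAs with the smallest p in each direction in HCD-fed females; 18 of the 19 shown have the same sign in RD-fed females, and miR-1298-5p stands alone at the lower right.

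Other leading miRNAs with a deposited p in both female contrasts shared the sign but not always the size. miR-34b-5p was -1.30 in HCD-fed and -0.36 in RD-fed females, miR-101a-3p -1.13 and -0.45, and miR-19b-3p -1.09 and -0.47. None of these differences between the contrasts passed at an adjusted p under 0.05. Values lay nearer to each other for some higher miRNAs. miR-342-5p was 1.43 in HCD-fed and 1.30 in RD-fed females, miR-154-3p 1.43 in HCD-fed and 1.12 in RD-fed females, and miR-664-3p 1.27 in HCD-fed and 0.85 in RD-fed females. Of the 20 with the smallest p in HCD-fed females, 19 had a deposited p in the RD-fed contrast, and 18 of these 19 had the same sign there. Over 626 miRNAs the Pearson correlation was 0.403 and the Spearman correlation 0.387, and 61.1% of those not at 0 shared a sign. Both contrasts set 1 of the order number sets against another (HCD-HCD and HCD-RD against RD-HCD and RD-RD), so a difference between sets would appear in both alike and its part was not tested. miR-1298-5p went in opposite directions in the 2 contrasts.

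The measured differences of the 2 arms of a hairpin were not correlated in the female contrast. Over 186 hairpins with both arms free of remarks, the 5p and 3p differences had a Pearson correlation of 0.00 and a Spearman correlation of -0.015, and of the pairs not at 0, 87 had opposite signs and 94 the same. In males the Pearson correlation over 182 hairpins was 0.236, and in RD-fed females over 181 hairpins it was 0.124. Whether these correlations differ was not tested. With a median standard error of 0.40 in the female contrast, error in each arm lowers such a correlation, so arms that share a change could still show little of it. The 5p minus 3p difference was tested for 150 hairpins, a test added after the data were seen, and 1 passed (0.667%). In miR-872, at chr4:94665157-94665237 in an intron of Ift74, a gene for the transport of proteins in cilia, the 5p arm was higher by 0.91 and the 3p arm lay at -0.87. The arms differed by 1.79 (standard error 0.46, adjusted p = 0.015 by the normal test with Benjamini-Hochberg adjustment). The 5p arm lay at 0.40 in males and 0.60 in RD-fed females, and the 3p arm at -0.65 in males and -0.22 in RD-fed females.

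**Figure D5:**
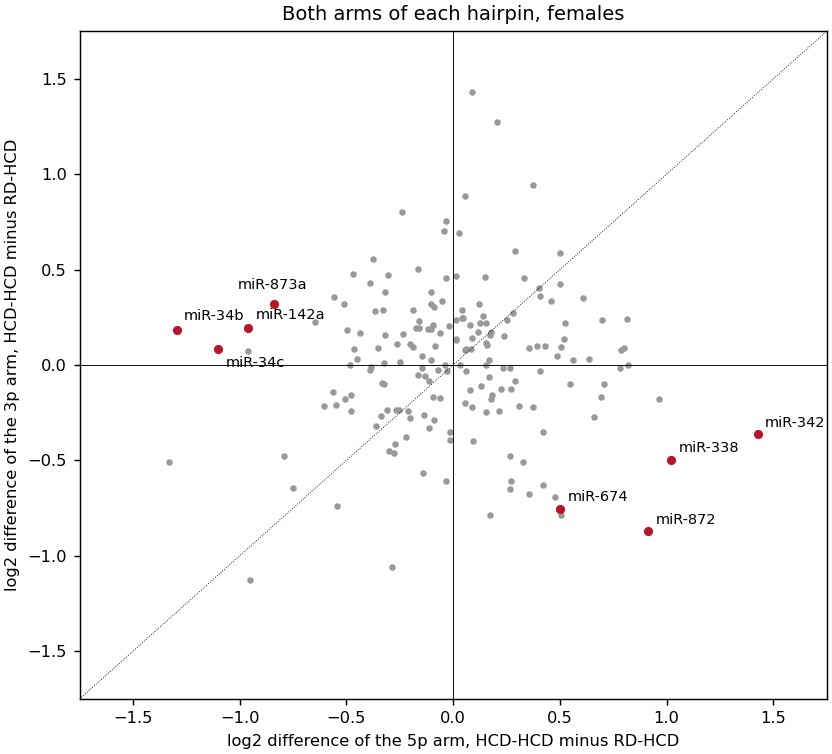
Log2 difference of HCD-HCD minus RD-HCD in females for the 5p arm (horizontal) and the 3p arm (vertical) of 186 hairpins. Red marks the 8 hairpins with the smallest p for 5p minus 3p. That choice favours arms that lie far apart, and these 8 lie in the quadrants where the arms have opposite signs. The whole cloud shows no trend (r = 0.00).

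Further hairpins with wide arm differences were miR-342, with 1.43 for the 5p arm and -0.36 for the 3p arm (adjusted p = 0.052 by the normal test), and miR-338, with 1.02 and -0.50. In the other direction, miR-34b had -1.30 for the 5p arm and 0.19 for the 3p arm. The 5p minus 3p value in HCD-fed females had a Pearson correlation of 0.49 with that in HCD-fed males over 182 hairpins and of 0.618 with that in RD-fed females over 181 hairpins. Each point is a hairpin, and the values share the sequence of both arms and, for the female pair, the order number sets.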

How the data were processed

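Small RNA of the hypothalamus was sequenced with QIAseq miRNA libraries, per the labels' protocols. No source used here gives the aligner or counting rule. The submitters' processing notes name build mm10. The deposited fold, a ratio of group to RD-RD after DESeq2 normalisation per the file headers, is rounded to 2 decimals. The deposited p-value is DESeq2's unadjusted one, per the file headers. The fold regulation score deposited by the authors is the fold, or minus its inverse under 1, and served as an alternative. The authors' DESeq2 version was not found in any label or header used here. The files hold no counts, so the depth per library is unknown and no count test was run.

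HCD-HCD and RD-HCD females are in 1 table. Of the miRNAs with 0 molecules in both HCD-HCD and RD-RD, 216 still carry a p-value (folds of 1.05 to 1.08), which a fit of those 2 groups alone would not give, so both folds were treated as contrasts of 1 fit. The standard error of each log2 fold was its size over the normal score of its p, where the log2 fold reached 0.1 in size. These gave a spread per miRNA and, with 3 libraries per group and RD-RD counted once, the error of the difference. P-values were two-sided normal, adjusted by Benjamini-Hochberg, and called under 0.05, with 95% intervals. Rounding and any shrinkage of folds carry over into the difference. The method was run on simulated data in which both folds shared the RD-RD libraries as it assumes, which cannot test that assumption. It was also checked against the deposited male list of HCD-HCD against RD-HCD: for 28 of its 47 miRNAs the derived minus the direct log2 fold had a median of -0.004 (range -0.72 to 0.12), and derived errors were 1.09 times the direct ones in the median (range 0.92 to 1.41). Of the 28, 24 lay within 0.13.

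The 103 piRNAs were left out. The members and the 21 lists were chosen with earlier results of these data known. Named were 92 miRNAs: the 10 smallest p in each direction, up to 4 per list by p, list members that passed, the let-7 and miR-98 strands, and a few set by name. miRNAs outside this rule are named for their hairpin, seed or cluster, chosen after their values were seen. Hosts came from GENCODE M21 on GRCm38, same strand. Of 43 libraries in the sample sheets, 18 were not analysed here. Python 3.11.15, numpy 2.4.6, scipy 1.17.1 and pandas 2.3.3 were used.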

Additional observations from a re-analysis of the deposited data

Results flagged for a closer look

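The effect of the dam's diet on miR-1298-5p differed between HCD-fed and RD-fed females, by a test of the difference itself. The log2 difference was -1.33 in HCD-fed females (HCD-HCD minus RD-HCD) and 0.70 in RD-fed females (HCD-RD over RD-RD), and the 2 differed by -2.03 (standard error 0.37, adjusted p = 2.1e-05 by the normal test with Benjamini-Hochberg adjustment over 450 miRNAs). It remained the 1 miRNA called when both variances were added, when the larger error was used and under the other settings tried for this comparison. HCD-RD was normalised in a table of its own, and the median log2 fold of the miRNAs with no remark there was -0.01. The result covers the 5p arm only. miR-1298-3p lay at -0.51 in HCD-fed and -0.32 in RD-fed females, and the difference of -0.19 (standard error 0.41) did not pass.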

How the results depend on the processing

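Of 3 miRNAs called in females, 1 was called with low-count miRNAs included, 0 with variances added and no allowance for shared RD-RD libraries, 1 by Benjamini-Yekutieli and 1 by Holm adjustment, and 22 (12 higher, 10 lower) at an unadjusted p under 0.01. The 1 was miR-1298-5p each time, and its own adjusted p was 0.44 with variances added. miR-664-3p had an adjusted p of 0.062 with low-count miRNAs and 0.99 with variances added. Of 41 calls in males, 2 stood with variances added. No named miRNA changed direction. Under the alternatives for miRNAs tested, errors, source of the fold and centring, 545 values of named miRNAs kept their side of the threshold and 7 did not, and miR-664-3p and miR-34b-5p were also lost under both other adjustments. All 126 list medians moved by less than a typical standard error, but those near 0 changed sign: the inflammation-related median (0.03) was -0.01 when folds were centred on their median and -0.02 with low-count miRNAs, and the microglial and leukocyte median (0.03) was -0.01 when centred. Counting untested miRNAs as not different, and requiring no remark in both sexes, were settings chosen after seeing the data, and each left 3 calls. No paired analysis was possible because the tables hold no value per library. For the same reason leaving out single libraries and tests on counts were not run, so no result here shows how far it rests on 1 library. For a typical miRNA, folds under about 1.72 do not reach even an unadjusted p of 0.05. A call at an adjusted p under 0.05 needed more: miR-154-3p, with a ratio of 2.70 and a standard error of 0.41, did not pass.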
